A study of Mus musculus with 6 samples.

Results

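The 9 genes described here mark developing B lymphocytes, the antibody-producing lineage that forms in fetal liver and bone marrow. They are Vpreb1, Vpreb3, Igll1, Cd79a, Cd79b, Blnk, Pax5, Il7r and Rag1, chosen by name as B lineage genes of marrow from the 43346 genes of a count table made from cartilage cells. All 9 had counts in all 6 libraries and all 9 passed the filter on low counts that left 17554 genes for testing. The question for these genes was how much B lineage RNA the cartilage digests carried and whether it differed with genotype.

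Girk3-null (Girk3-/-) mice were set against wild type mice, with 3 libraries each, all 5 days old, on the C57BL/6 strain and labelled male. Girk3 is a subunit of potassium channels that G proteins open and is encoded by Kcnj9. The mutant allele, and whether cells of several animals were pooled, are not given in the labels, which call the libraries biological replicates. Epiphyseal cartilage, the growing end of the bones, was digested with collagenase, and polyadenylated RNA of the released cells was sequenced with no sort for chondrocytes named in the protocol. In bulk RNA of this kind, fewer cells of a type and less RNA per cell cannot be told apart.

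B lymphocyte development runs through ordered steps. Precursors respond to interleukin 7 through Il7r and cut their immunoglobulin genes with the recombinase Rag1 and its partner Rag2. A new heavy chain is then displayed with the surrogate light chain, made of VpreB and lambda 5 (Igll1), in the pre-B cell receptor. Cd79a and Cd79b carry the signal of this receptor and of the later B cell receptor, Blnk is the adaptor that relays it, and Pax5 is the transcription factor that holds cells in the lineage. Il7r and Rag1 are also used by developing T cells, and Blnk by macrophages.

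Total counts ranged from 34279516 to 60392837 per library. Col2a1, the main cartilage collagen, took 3.12% to 8.25% of them, so the defining chondrocyte transcript was abundant in each library. Kcnj9 had 0 counts in every library, which allows up to 3 counts and therefore checks no genotype label. Against the male label, 5 libraries had 67346 to 144825 counts of Xist and 0 to 7 summed counts of 4 Y-linked genes (Uty, Kdm5d, Ddx3y, Eif2s3y), while Girk3-null replicate 1 had 19 of Xist and 16088 of those 4. The fold change of each of the 9 genes is therefore also given without that library, as are those of other genes where stated.

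Vpreb1 has a near copy, Vpreb2, 1109721 bases away on chromosome 16, and the coding sequences are shown because reads of the pair are hard to place. Both coding sequences are 426 bases long without the stop codon and differ at 9 of 426 positions, an identity of 97.89% in GENCODE M21. Of 377 stretches of 50 bases, 162 are the same in both genes. Bases 268 to 387 of the coding sequence, counted from the start codon, hold 6 of the 9 differences, which are in capitals:
Vpreb1: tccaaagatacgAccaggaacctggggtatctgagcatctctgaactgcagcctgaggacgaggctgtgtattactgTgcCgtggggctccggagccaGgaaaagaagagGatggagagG
Vpreb2: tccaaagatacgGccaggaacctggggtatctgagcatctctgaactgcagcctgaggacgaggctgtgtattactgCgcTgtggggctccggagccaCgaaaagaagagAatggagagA

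Vpreb2 had 0, 1 and 1 counts in the Girk3-null libraries and 0, 2 and 0 in the wild type libraries, in replicate order. Vpreb1 had 20, 19 and 16 counts in the Girk3-null libraries, against 17, 44 and 11 in the wild type libraries. No source used here says how reads matching both genes were counted, and the Vpreb1 values are uncertain by whatever share was dropped or split.

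RefSeq promoters on GRCm38.p6, which run from 250 bases before to 50 after the start, were matched by symbol for 8 of the 9 genes. The E-box CAGGTG, a motif bound in B cell precursors by E proteins such as the product of Tcf3, was searched on both strands. It stood in 5 of the 8 promoters, against 20.21% of 32851 promoters of the same length. The 60-base windows around it are shown because E proteins are known to act on B lineage genes, and capitals mark the motif or its reverse complement CACCTG. Each is written on the strand of the gene, and the RefSeq starts of Cd79a, Vpreb1 and Blnk lie inside the spans that the count table gives these genes:
Rag1 (chr2:101649635-101649694, minus strand): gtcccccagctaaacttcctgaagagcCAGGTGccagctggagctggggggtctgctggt
Cd79a (chr7:24897316-24897375, plus strand): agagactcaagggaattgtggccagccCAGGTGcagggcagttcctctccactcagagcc
Igll1 (chr16:16863986-16864045, minus strand): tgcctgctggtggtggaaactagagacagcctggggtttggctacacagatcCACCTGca
Vpreb1 (chr16:16869311-16869370, minus strand): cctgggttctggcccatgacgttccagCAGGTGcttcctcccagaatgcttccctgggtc
Blnk (chr19:40994349-40994408, minus strand): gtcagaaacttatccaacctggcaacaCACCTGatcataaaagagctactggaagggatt

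A second E-box, CAGCTG, stood in the Igll1 and Rag1 promoters and in 16.3% of all promoters. The relaxed letters of an Ebf1 site, CCCNNGGG, stood in the Igll1 promoter alone among the 8 and in 13.67% of all promoters. The motif matches in these promoters overlapped in 0 cases, and a match is a description of these letters, not of binding.

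B lineage RNA was present in every digest at a low level, and no member differed between the genotypes beyond the spread of the libraries. The 9 genes together took 6.31, 17.7 and 9.41 CPM (counts per 1e+06, scaled by TMM factors) in Girk3-null replicates 1, 2 and 3, against 10.2, 17.5 and 7.71 CPM in wild type replicates 1, 2 and 3. Girk3-null replicate 2 and wild type replicate 2 were the highest libraries, 1 of each genotype. Of the 9 genes, 4 were highest in Girk3-null replicate 2 and 5 in wild type replicate 2, so no gene had its maximum in another library. The summed raw counts behind these levels were 374, 774 and 302 in the Girk3-null libraries and 480, 949 and 316 in the wild type libraries. Il7r, Rag1 and Blnk, which other cells also use, had 995, 530 and 395 of these counts over all libraries. The part of other cells in the sums was not tested.

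**Figure D1:**
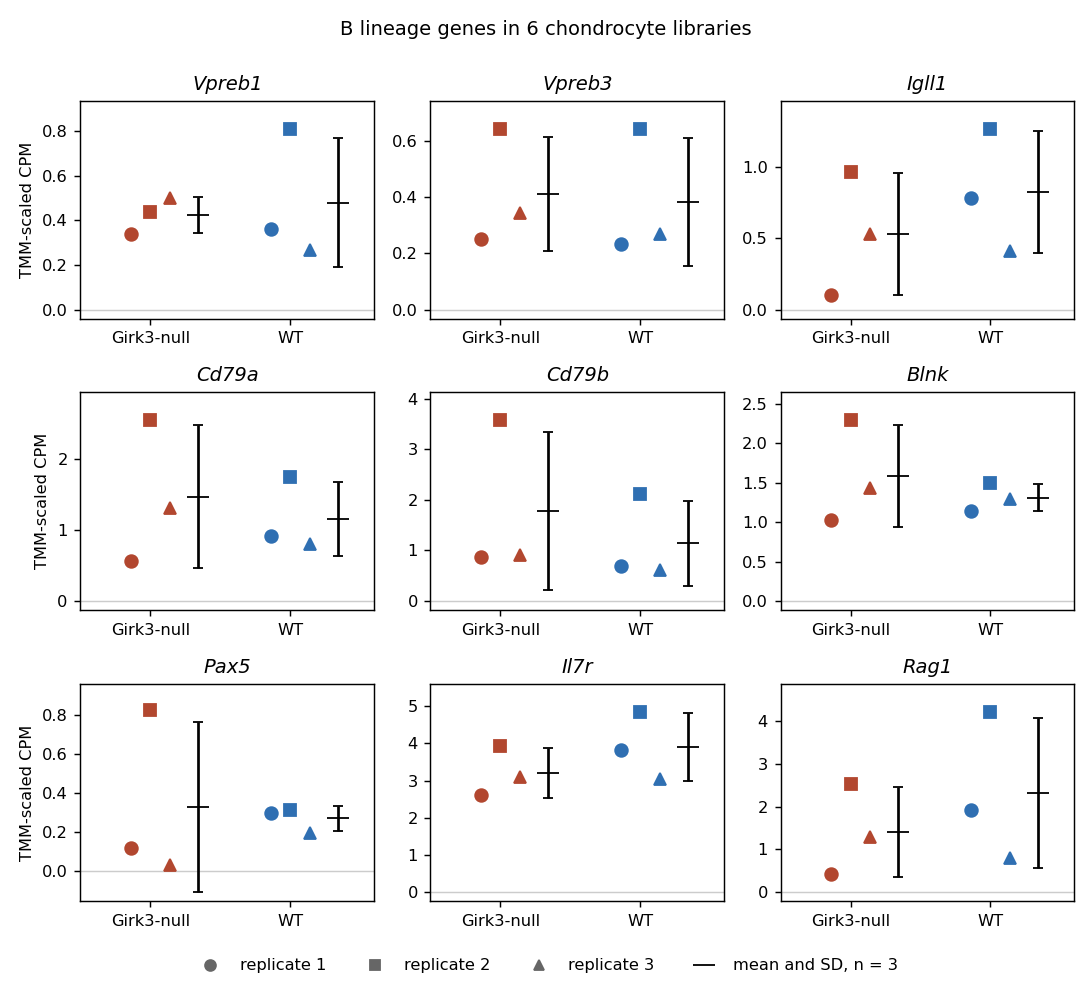
TMM-scaled CPM of each of the 9 genes (vertical axis, each panel with its own scale) in 3 Girk3-null and 3 wild type libraries, with the marker shape for the replicate number and black bars for the mean and SD (n = 3). The squares, replicate 2 of each genotype, are the highest of their group in 8 of the panels on the Girk3-null side and in all 9 on the wild type side, and the groups overlap in each panel.

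In edgeR's quasi-likelihood test, 0 of the 9 genes passed an adjusted p of 0.05, where 0.00570% of the 17554 genes did, a single gene. At an unadjusted p under 0.05 the members numbered 0 of 9, against 14.5% of all genes. DESeq2 called 0 of the 7 members to which it gave an adjusted p, against 2.23% of all genes, and limma-voom called 0 of 9, against 0%. For 0 of 9 members did the CPM of the genotypes fail to overlap, against 20.0% of all genes. Log2 fold changes, Girk3-null over wild type, were negative for 4 members and positive for 5, with a median of 0.09, and the median over all genes tested was 0.01. The smallest adjusted p in edgeR was 0.596, for Il7r.

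The surrogate light chain genes and the related Vpreb3 come first. Igll1 (ENSMUSG00000075370, chromosome 16, 16860671 to 16863985, mm10, minus strand), which encodes lambda 5, measured 0.101, 0.963 and 0.530 CPM in the Girk3-null libraries, against 0.783, 1.27 and 0.415 CPM in the wild type libraries. Its counts were 6, 42 and 17, against 37, 69 and 17. The lowest value was that of Girk3-null replicate 1, and the other Girk3-null libraries lay within the wild type range. The log2 fold change was -0.67 with a standard error of 0.71 and a 95% interval of -2.28 to 0.95 (adjusted p = 0.665 in edgeR). Leaving out Girk3-null replicate 1 brought it to -0.13.

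Vpreb1 (ENSMUSG00000059305, chromosome 16, 16868402 to 16870843, minus strand) lies 4416 bases from Igll1. It measured 0.337, 0.436 and 0.499 CPM in the Girk3-null libraries, against 0.360, 0.809 and 0.268 CPM in the wild type libraries. The Girk3-null values lay close together and inside the wild type range. The log2 fold change was -0.21 with a 95% interval of -1.31 to 0.89 (adjusted p = 0.854 in edgeR). Leaving out Girk3-null replicate 1 gave -0.06, and leaving out wild type replicate 2 gave 0.41. The gene shares 108 bases with Top3b on the opposite strand, which had 12814 counts over the 6 libraries, and the strand setting of the counting is not given.

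Vpreb3 (ENSMUSG00000000903, chromosome 10, 75943057 to 75949657, plus strand) encodes a chain related to VpreB that binds newly made immunoglobulin. It measured 0.253, 0.642 and 0.343 CPM in the Girk3-null libraries, against 0.233, 0.644 and 0.268 CPM in the wild type libraries. Replicate 2 of each genotype was the highest, and at nearly the same level. The log2 fold change was 0.09 with a 95% interval of -1.17 to 1.34 (adjusted p = 0.955 in edgeR), turned to -0.034 when libraries were scaled by size only, and was 0.37 without Girk3-null replicate 1.

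Rag1 (ENSMUSG00000061311, chromosome 2, 101638282 to 101649501, minus strand) encodes the DNA-cutting subunit of the recombinase. It measured 0.439, 2.52 and 1.28 CPM in the Girk3-null libraries, against 1.93, 4.21 and 0.805 CPM in the wild type libraries. Its libraries spanned 9.60-fold, with replicate 2 highest in both genotypes, and the groups overlapped. The log2 fold change of -0.73 (standard error 0.69, 95% interval -2.31 to 0.85, adjusted p = 0.621 in edgeR) became 0.032 without wild type replicate 2 and -0.28 without Girk3-null replicate 1. Rag1 lies inside B230118H07Rik, a longer gene annotated on the same strand with 2650 counts in all.

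Il7r (ENSMUSG00000003882, chromosome 15, 9506161 to 9529876, minus strand), the interleukin 7 receptor alpha chain, had the most counts of the 9 genes, 995 in all. It measured 2.62, 3.94 and 3.09 CPM in the Girk3-null libraries, against 3.81, 4.86 and 3.05 CPM in the wild type libraries. It varied least, 1.86-fold from the lowest to the highest library. The log2 fold change was -0.28 with a standard error of 0.25, the narrowest interval of the 9 at -0.86 to 0.29, and -0.15 without Girk3-null replicate 1.

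Cd79a (ENSMUSG00000003379, chromosome 7, 24897381 to 24902197, plus strand), the first signalling chain of the receptor, measured 0.557, 2.54 and 1.31 CPM in the Girk3-null libraries, against 0.910, 1.75 and 0.805 CPM in the wild type libraries. Cd79b (ENSMUSG00000040592, chromosome 11, 106311341 to 106314762, minus strand), the second chain, measured 0.861, 3.58 and 0.904 CPM in the Girk3-null libraries, against 0.699, 2.12 and 0.610 CPM in the wild type libraries. For both genes Girk3-null replicate 2 was highest and wild type replicate 2 next. The log2 fold changes were 0.33 for Cd79a (95% interval -0.91 to 1.58, adjusted p = 0.788) and 0.63 for Cd79b (-0.90 to 2.16, adjusted p = 0.667) in edgeR. They were -0.35 and -0.38 without Girk3-null replicate 2, so 1 library set their sign, and 0.74 and 0.98 without Girk3-null replicate 1.

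Blnk (ENSMUSG00000061132, chromosome 19, 40928927 to 40994535, minus strand), the adaptor below the receptor, measured 1.03, 2.29 and 1.43 CPM in the Girk3-null libraries, against 1.14, 1.49 and 1.29 CPM in the wild type libraries. The wild type libraries lay within a narrow range, with Girk3-null replicate 2 well above it and Girk3-null replicate 1 just below. The log2 fold change was 0.27 with a 95% interval of -0.51 to 1.05 (adjusted p = 0.723 in edgeR), and Girk3-null replicate 2 set its sign: the value was -0.10 without that library and 0.52 without Girk3-null replicate 1.

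Pax5 (ENSMUSG00000014030, chromosome 4, 44531145 to 44710487, minus strand) was the scarcest. It had 7, 36 and 1 counts in the Girk3-null libraries, against 14, 17 and 8 in the wild type libraries, which are 0.118, 0.825 and 0.0312 CPM against 0.296, 0.313 and 0.195 CPM. The single count in Girk3-null replicate 3 has an exact Poisson interval of 0.0253 to 5.57 counts, for counting error only. The Girk3-null libraries thus held both the highest and the lowest Pax5 level. Its log2 fold change of 0.28 (95% interval -1.71 to 2.27, adjusted p = 0.896 in edgeR) was -1.67 without Girk3-null replicate 2 and 0.73 without Girk3-null replicate 1.

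**Figure D2:**
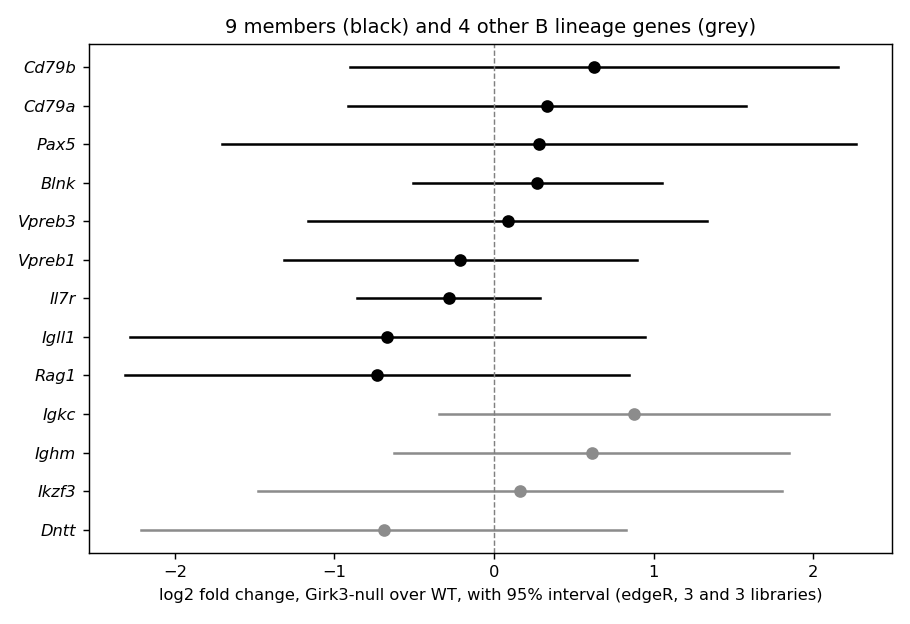
Log2 fold change, Girk3-null over wild type, with its 95% interval from edgeR (3 libraries each), for the 9 genes in black and for 4 other B lineage genes in grey. Every interval shown crosses 0, from the narrowest (Il7r, -0.86 to 0.29) to the widest (Pax5, -1.71 to 2.27).

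Levels of different genes were compared as deposited RPKM, which divides by gene length, and a mean over the 6 libraries gave the order. Il7r stood first at 1.12 RPKM, then Cd79b at 1.02, Cd79a at 0.901, Vpreb3 at 0.465, Vpreb1 at 0.410, Igll1 at 0.319, Rag1 at 0.289, Blnk at 0.241 and Pax5 at 0.121. By genotype (mean ± SD, n = 3 each), Il7r measured 0.965 ± 0.205 RPKM in Girk3-null and 1.27 ± 0.356 RPKM in wild type libraries. Pax5 measured 0.128 ± 0.172 RPKM in Girk3-null and 0.114 ± 0.0325 RPKM in wild type libraries. Each gene's range over libraries overlapped that of its neighbour in the order. Compared library by library, Cd79a was above Vpreb3 in 6 of 6 and Blnk above Pax5 in 6 of 6, and the other neighbours kept their order in 2 to 5 of 6 libraries.

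**Figure D3:**
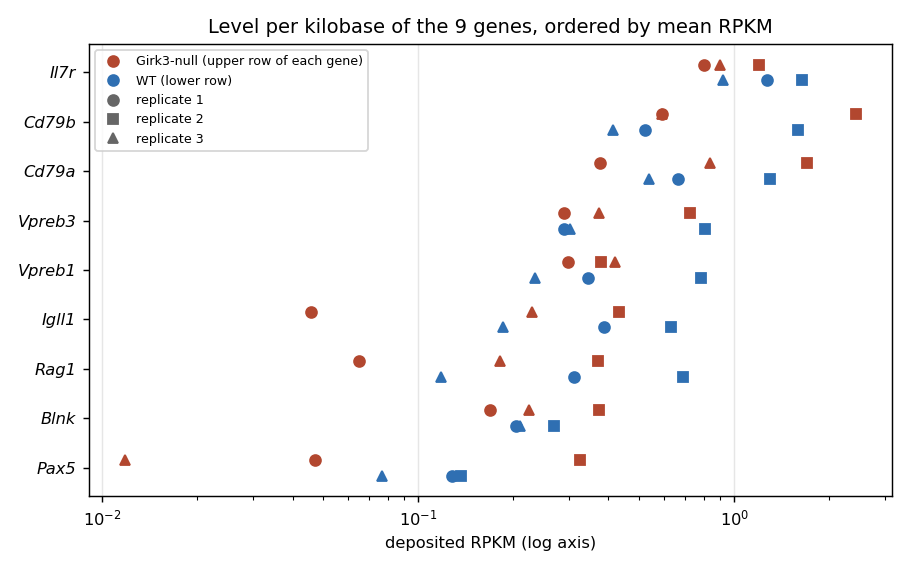
Deposited RPKM (horizontal log axis) of the 9 genes, ordered from the highest mean at the top (Il7r, 1.12 RPKM) to the lowest at the bottom (Pax5, 0.121 RPKM). Points are libraries, with Girk3-null above wild type in each gene's pair of rows. Ranges of neighbouring genes overlap throughout.

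The balance of summed counts between a set of genes called early here and the signalling chains differed between libraries. The signalling chains also serve the pre-B cell receptor, and Vpreb3 was most like Cd79b in pattern (r = 0.94). The balance is therefore not a scale of early against later stages. Counts of Vpreb1, Vpreb3, Igll1 and Rag1 were summed and expressed as a share of their sum with Cd79a and Cd79b, a ratio that does not depend on library size. The share was 44.4%, 42.7% and 54.5% in Girk3-null replicates 1, 2 and 3, against 67.2%, 64.2% and 55.4% in wild type replicates 1, 2 and 3. Exact Clopper-Pearson 95% intervals were 36.3% to 52.7%, 38.2% to 47.3% and 46.3% to 62.5% in the Girk3-null libraries, against 60.8% to 73.2%, 60.2% to 68.1% and 46.4% to 64.1% in the wild type libraries. The groups did not overlap, but the third libraries of the genotypes were within each other's counting intervals. The mean was 47.2 ± 6.38% in Girk3-null and 62.3 ± 6.16% in wild type libraries (SD, n = 3 each). Rag1, the longest of these genes, weighed most in the early sum. It had 530 counts in all, against 127 for Vpreb1, 111 for Vpreb3 and 188 for Igll1. Without Rag1 the mean share was 32.0% in Girk3-null and 42.5% in wild type libraries. The log2 fold changes were -0.73 for Rag1, -0.67 for Igll1, -0.21 for Vpreb1 and 0.09 for Vpreb3. The share was put together after the values had been seen and is given with no test.

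**Figure D4:**
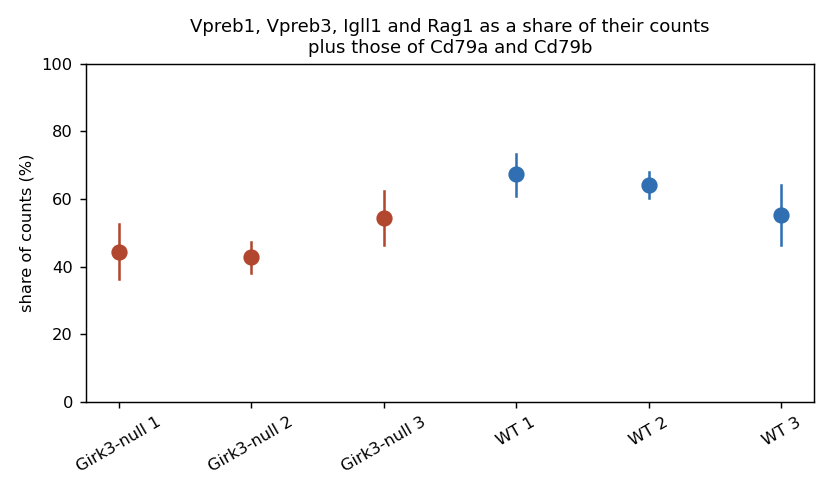
Share of counts (vertical axis, %) that Vpreb1, Vpreb3, Igll1 and Rag1 took of their sum with Cd79a and Cd79b, per library, with exact 95% binomial intervals for counting error. The Girk3-null libraries lie at 42.7% to 54.5% and the wild type libraries at 55.4% to 67.2%, with replicate 3 of both at nearly the same share.

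The title numbers of the libraries fall below or above 200, and what the numbers mean is not given. Below 200, Girk3-null replicate 1 stands beside wild type replicates 1 and 2. That Girk3-null library had 16088 counts of the Y-linked genes, and the wild type libraries beside it had 0. Genotype and sex, as read from these genes, therefore cannot be told apart below 200. In the set below 200 the Girk3-null library was below both wild type libraries for 7 of 9 members, against 42.2% of all genes. Above 200, Girk3-null replicates 2 and 3 stand beside wild type replicate 3, and both were above it for 8 of 9 members, against 30.8% of all genes. Both held for 6 of 9 members, against 11.8% of all genes. For Rag1 the log2 ratio of mean CPM, Girk3-null over wild type, was -2.81 below 200 and 1.24 above 200, and for Cd79b it was -0.71 and 1.88. The share of early genes, put together after the values were seen, was 44.4% in Girk3-null against 67.2% and 64.2% in wild type below 200. Above 200 it was 42.7% and 54.5% in Girk3-null against 55.4% in wild type. There, 54.5% and 55.4% lay within each other's counting intervals, so the difference above 200 rested on Girk3-null replicate 2. Each set has a single library on one side, so these comparisons have no replicate check on that side, and the members share their source cells and are not replicates of one another.

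Other B lineage genes were described from 6 lists of 85 distinct genes, of which 83 were found, 67 were tested and 0 passed in edgeR. The unadjusted p was under 0.05 for 3 of 15 tested surface genes and 7 of 16 tested interleukin 7 and niche genes, and for 0 in the other 4 lists, against 14.5% of all genes. The 3 surface genes were Cd93 (log2 fold change -0.98), Cd72 (0.81) and Faim3 (2.34), the last 2 named after their values were seen. Faim3 had 14, 11 and 9 counts in the Girk3-null libraries, against 1, 5 and 1 in the wild type libraries. Without Girk3-null replicate 1, Cd72 was at 1.02 and Faim3 at 2.39. DESeq2 called 5 of the 62 to which it gave an adjusted p, against 2.23% of all genes, namely Cd93, Jak3, Cxcr4, Kitl and Kit, and limma-voom called 0 of 67. All 5 belong to the surface list or to the interleukin 7 and niche list, and none is particular to B cells. Median log2 fold changes were -0.03 for surrogate light chain and recombination partners, 0.10 for transcription factors, 0.24 for surface proteins, 0.61 for immunoglobulin constant regions, -0.03 for receptor signalling and 0.06 for the interleukin 7 pathway and niche. Without Girk3-null replicate 1 these medians were, list by list, -0.0054, 0.078, 0.32, 0.91, 0.017 and 0.079, so that of receptor signalling changed sign.

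Ighm and Igkc stood above all 9 members per length. Ighm, the heavy chain constant region of the first antibodies made, had 375, 952 and 212 counts in the Girk3-null libraries, against 341, 639 and 152 in the wild type libraries. Igkc, the kappa light chain constant region, had 78, 158 and 42 counts, against 46, 100 and 23. Both were highest in Girk3-null replicate 2, with wild type replicate 2 second. Ighm measured 5.94 ± 4.60 RPKM in Girk3-null and 4.24 ± 2.41 RPKM in wild type libraries (mean ± SD, n = 3), and Igkc 6.21 ± 4.03 RPKM in Girk3-null and 3.67 ± 2.26 RPKM in wild type libraries. Their log2 fold changes of 0.61 and 0.88 did not pass in edgeR (adjusted p = 0.598 and 0.447), and were 0.91 and 1.13 without Girk3-null replicate 1. Ighd, the constant region of mature cells, stood at 0.124 ± 0.0900 RPKM in Girk3-null and 0.116 ± 0.0689 RPKM in wild type libraries. Transcripts of switched antibody classes had 0 to 5 counts per gene and library.

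Further genes of early and later steps were named after their values were seen. Dntt, which adds bases at recombined joints, had 9, 23 and 13 counts in the Girk3-null libraries, against 14, 60 and 12 in the wild type libraries, with a log2 fold change of -0.69 (adjusted p = 0.627 in edgeR), which was -0.28 with Girk3-null replicate 1 left out. Rag2 had 2, 14 and 7 counts, against 4, 17 and 3, and missed the filter. Ikzf3, a transcription factor of later B cells, had 24, 93 and 10 counts, against 32, 73 and 21. In these 3 genes replicate 2 was the highest library of each genotype, but they were picked with their values known. Not all listed genes shared this pattern. In Girk3-null replicates 1, 2 and 3, Pou2af1 measured 4.13, 2.49 and 3.52 RPKM and Fcer2a 0.967, 3.32 and 6.01 RPKM.

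The most abundant genes of the remaining lists are not confined to B cells. Among transcription factors these were Tcf3 at 9.33 ± 1.22 RPKM in Girk3-null and 8.19 ± 0.810 RPKM in wild type libraries, then Foxo1, Lef1 and Pou2af1, with log2 fold changes of 0.29, 0.10, 0.38 and 0.12. Cd24a, a surface protein of many immature cells, measured 114 ± 4.88 RPKM in Girk3-null and 104 ± 7.39 RPKM in wild type libraries, with a log2 fold change of 0.24. Fcer2a (-0.14), Bst1 (-0.09) and Cd93 (-0.98) were the other surface genes at the highest levels. Recombination partners shared with general DNA repair, Xrcc5, Xrcc6, Lig4 and Prkdc, had log2 fold changes of -0.04, 0.12, -0.17 and 0.13. Signalling genes gave 0.23 for Plcg2, 0.08 for Dapp1, -0.24 for Bcl10 and -0.03 for Malt1. None of these passed in edgeR, and in DESeq2 Cd93 alone did. Cd93 is also made by endothelial cells, and it measured 3.46 ± 1.17 RPKM in Girk3-null and 7.43 ± 1.92 RPKM in wild type libraries. Without Girk3-null replicate 1 the log2 fold change of Cd93 was -0.72, and the signs of Pou2af1 (-0.035), Fcer2a (0.32) and Dapp1 (-0.0056) turned.

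The interleukin 7 and niche list held Cxcr4, the receptor that keeps precursors near stroma, at 6.70 ± 1.95 RPKM in Girk3-null and 15.4 ± 6.29 RPKM in wild type libraries (log2 fold change -1.08, adjusted p = 0.291 in edgeR, called lower in DESeq2). Jak1, Stat5a and Stat5b, which carry the receptor's signal in many cell types, had log2 fold changes of -0.15, 0.47 and 0.35. Il7 itself, named after its values were seen, had 41, 15 and 19 counts in the Girk3-null libraries, against 35, 42 and 42 in the wild type libraries (log2 fold change -0.63, adjusted p = 0.435). Kitl and its receptor Kit, both named after their values were seen, had log2 fold changes of -1.29 and -1.46 (adjusted p = 0.291 for both in edgeR, and both called by DESeq2). Without Girk3-null replicate 1 the log2 fold changes were -0.85 for Cxcr4, -0.86 for Il7, -1.15 for Kitl and -1.07 for Kit. In this list 8 of 16 tested genes had groups that did not overlap, against 20.0% of all genes. Endothelial cells also use Kitl and Cxcr4. The endothelial list, led by Cdh5 and Eng, summed to 79.2 to 163 CPM in Girk3-null and 192 to 283 CPM in wild type libraries, with 12 of 14 log2 fold changes negative, 0 passing in edgeR and 4 in DESeq2. Its part in these values was not tested.

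Markers of other cell types were read beside the members. T cells also use Il7r and Rag1. Among the T cell receptor chains and coreceptors, Cd3e had 5 counts in Girk3-null replicate 3 but 0 in each remaining library, Cd3d had 0 to 4, Cd3g 0 to 2, Cd8a 0 to 2 and Cd4 1 to 16. Other T cell markers had more, with 6 to 12 counts of Cd247, 19 to 92 of Lck and 91 to 343 of Cd28 per library. Of 16 T cell markers 6 were tested, and their summed level was 12.4 to 16.9 CPM in Girk3-null and 12.5 to 17.6 CPM in wild type libraries, led per length by Tcf7 and Lat. The part of T cells in the Il7r and Rag1 values was not tested. Natural killer and innate lymphoid markers had 3 of 10 genes tested, and Ncr1 and Gzma were at 0 in every library. Rora and Il1rl1, the most abundant of that list, are used by many cells. DESeq2 called Il1rl1 (log2 fold change -0.88 in edgeR, where 0 of that list passed).

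Erythroid and neutrophil markers, from lineages that share the marrow with B cells, were read library by library. Erythroid markers summed to 56.8, 162 and 91.4 CPM in the Girk3-null libraries, against 215, 281 and 80.2 CPM in the wild type libraries, led by Hbb-bs and Hbb-bt. Like the member sum, they were lowest in Girk3-null replicate 1 and highest in replicate 2 within each genotype. All 12 tested had a negative log2 fold change, with 0 passing in edgeR or DESeq2. Neutrophil markers, led by Lcn2 and S100a9, summed to 3159, 2314 and 1949 CPM in the Girk3-null libraries, against 1578, 1120 and 1528 CPM in the wild type libraries, with 7 of 14 log2 fold changes positive and a median of -0.01. Lcn2 was the only gene of the list that DESeq2 called (log2 fold change 1.26 in edgeR, where 0 passed). Lcn2 alone, which other cells also make, took 48.2% to 87.0% of that sum. Without it, in a sum chosen after the values were seen, the list stood at 410, 802 and 285 CPM in the Girk3-null libraries, against 817, 546 and 388 CPM in the wild type libraries. The part of either lineage in the member values was not tested.

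Macrophages also use Blnk, and their part in its values was not tested. Macrophage markers summed to 257 to 358 CPM in Girk3-null and 278 to 350 CPM in wild type libraries, led by Lyz2 and Cd14. Broad leukocyte genes, led by Arhgdib and Lcp1, summed to 163 to 287 CPM in Girk3-null and 197 to 296 CPM in wild type libraries. Dendritic cell markers, led by H2-Ab1 and Bst2, summed to 283 to 308 CPM in Girk3-null and 260 to 299 CPM in wild type libraries. Megakaryocyte markers, led by Pf4 and Gp1bb, summed to 58.3 to 68.1 CPM in Girk3-null and 46.9 to 56.8 CPM in wild type libraries. Progenitor markers, led by Cd34 and Runx1, summed to 179 to 209 CPM in Girk3-null and 226 to 253 CPM in wild type libraries. In these lists 0 genes passed in edgeR, and DESeq2 called Cd34 and Kit of the progenitor list.

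Solid tissue lists set the scale. Chondrocyte markers, led by Col2a1 and Col9a1, summed to 82399 to 130648 CPM in Girk3-null and 53532 to 89103 CPM in wild type libraries. Of these markers, 13 of 14 had a positive log2 fold change. DESeq2 called 4 of the 14, against 2.23% of all genes, and 0 passed in edgeR. Stromal markers, led by Pdgfra and Pdgfrb, summed to 362 to 432 CPM in Girk3-null and 403 to 475 CPM in wild type libraries. Kitl alone of the stromal list was called in DESeq2, and 0 passed in edgeR. Cell cycle genes, which dividing precursors also express, summed to 241 to 301 CPM in Girk3-null and 352 to 602 CPM in wild type libraries. All 16 had a negative log2 fold change, 10 passed in DESeq2 and 0 in edgeR, and their part in the member values was not tested. The 9 members, at 6.31 to 17.7 CPM, were a small signal beside each of these.

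**Figure D5:**
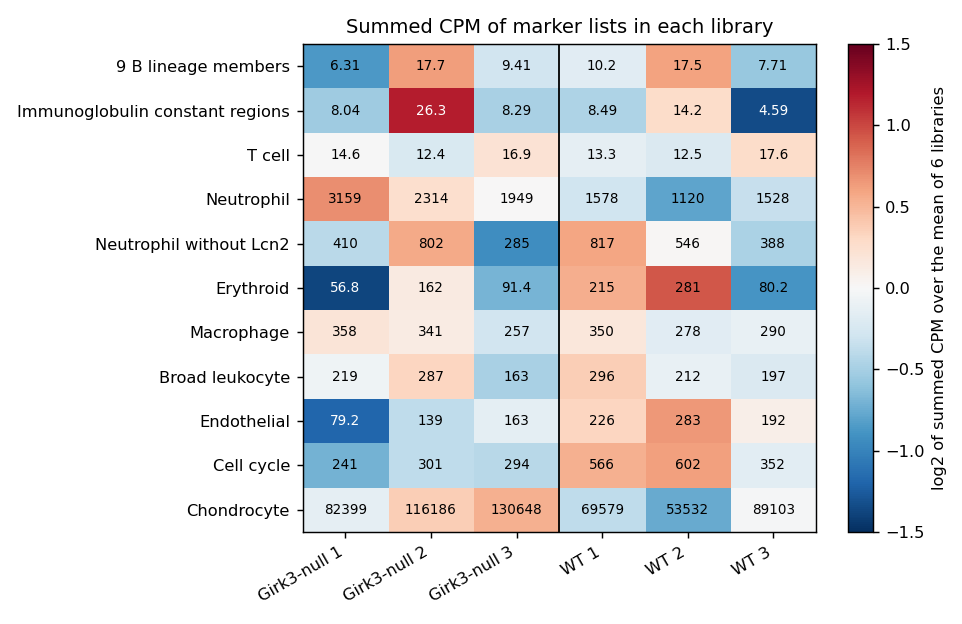
Summed CPM of marker lists (printed in each cell) by library, with colour for the log2 ratio to the mean of the 6 libraries. The member row is highest in replicate 2 of both genotypes (17.7 CPM in Girk3-null, 17.5 CPM in wild type). The erythroid row is highest in replicate 2 only within each genotype, with wild type replicate 1 (215 CPM) above Girk3-null replicate 2 (162 CPM). The neutrophil row is highest in Girk3-null replicate 1 (3159 CPM), but without Lcn2 that library is at 410 CPM.

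Over the 6 libraries, the members' own patterns were alike to different degrees. As a description, Pearson's r of log2 CPM reached 0.98 between Il7r and Rag1, 0.96 between Igll1 and Rag1 and 0.94 between Vpreb3 and Cd79b, and was 0.09 between Vpreb1 and Pax5. These pairs share libraries, depth and scaling. Of 14190 other genes whose log2 CPM averaged 0 or more, the 8 most like the members' mean pattern included Dcx (r = 0.99), Vimp (0.99), Kiz (0.99), Tubb4b (0.98), Sec11a (0.97), Spats2l (0.97) and Tmem29 (0.97), over 6 libraries. Dcx measured 0.759, 1.99 and 0.966 CPM in the Girk3-null libraries, against 1.19, 1.82 and 0.830 CPM in the wild type libraries. Sec11a, in contrast, ran only between 69.5 and 77.9 CPM, since r ignores the size of a change.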

How the data were processed

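RNA-seq libraries of 3 Girk3-null and 3 wild type samples were grouped by genotype as labelled. Replicate numbers follow accession order and pair nothing across genotypes. The authors deposited raw counts per gene, 1 column per library, per the file headers. The deposited table also holds RPKM, scaled by the authors to the library total and gene length, per the labels' protocols. Both were matched to samples by title. bcl2fastq 2.19.0, STAR 2.5.2b and build mm10 are named in the submitters' processing notes. No source used here names the counting tool, annotation or strand setting.

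Counts were tested with edgeR 4.0.16 in R 4.3.3 (quasi-likelihood F-test, genotype alone, TMM factors, filterByExpr at its thresholds of 10 per library and 15 in total), with Benjamini-Hochberg adjustment over 17554 genes and a threshold of 0.05. Standard errors are the absolute log2 fold change over the square root of F. P-values measure the spread between these 3 libraries a group. Alternatives were DESeq2 1.42.0, limma 3.58.1 (voom, and log2 RPKM with pseudocounts of 0.1 and 1), no filter, library size scaling, a title number covariate and leaving out each library. The fit was tested on simulated data. Its changes were set only in genes with a mean above 2 CPM, a level that most of the members did not reach. Log2 CPM for likeness had a prior count of 2. Where a gene had 0 counts, the limit was 3 counts per library, which is 0.0497 to 0.0875 CPM, and such limits and intervals cover counting error only.

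The members and lists were chosen with earlier results of these data known. Named genes were the 9 members, the 4 tested genes of highest mean RPKM per companion list, 2 per other list, and the 8 most alike in pattern, of which 1 is not reported here. Of genes outside that rule, Dntt, Rag2, Ikzf3, Il7, Kitl, Kit, Cd72 and Faim3 are marked as named after their values were seen. Jak3, Vpreb2 and the T cell and natural killer markers given by counts also lie outside it and carry no such mark. Promoters came from RefSeq and coding sequences from GENCODE M21.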

Additional observations from a re-analysis of the deposited data

How the results depend on the processing

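In the 14 alternatives 0 members passed an adjusted p of 0.05 (smallest 0.327, Rag1). The count of all genes called moved from 1 to 358 with DESeq2, 53 with no filter and 0 with library size only, limma-voom, log2(RPKM + 0.1) with or without the filter, log2(RPKM + 1) or the title number covariate, and ran from 0 to 74 with 1 library left out. Scaling by library size only moved the median of all genes by -0.11 on the log2 scale. The sign turned for Vpreb3 with library size only (-0.034), and for Pax5 with limma-voom (-0.63), log2(RPKM + 0.1) with and without the filter (-0.15) and the title number covariate (-0.050). The cause was not tested. With 1 library left out, log2 fold changes ran from -0.48 to 0.41 for Vpreb1, -0.39 to 0.71 for Vpreb3, -1.50 to -0.13 for Igll1, -0.35 to 0.77 for Cd79a, -0.38 to 1.44 for Cd79b, -0.10 to 0.52 for Blnk, -1.67 to 0.76 for Pax5, -0.46 to -0.10 for Il7r and -1.48 to 0.032 for Rag1. The median of the members ran from -0.39 to 0.40. For scale, the members' mean log2 CPM had a pooled SD of 0.74 between libraries of a genotype, which is not an error of that median. The share of early genes, Girk3-null minus wild type, was -15.1 percentage points, -18.7 to -12.6 with 1 library left out, and -9.57 to -16.8 under 4 other sums chosen after seeing the data. Of the 8 genes most alike in pattern, 6 to 8 stayed among the 100 most alike with 1 library left out. The order of levels was the same for all 9 genes with TMM-scaled CPM per kilobase. Low counts limit these genes, 83 to 995 over all libraries.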
